A study of Mus musculus with 9 samples.

Results

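Mouse embryonic stem (ES) cells sorted for High Myc were compared with cells sorted for Medium Myc, the upper step of the Myc range that the series sampled. The comparison takes the 3 High and the 3 Medium libraries, which are 6 of 9 libraries, and all 13499 genes of the authors' table. The other 3 libraries are of Low Myc cells. All 3 populations came from C57BL/6 ES cells kept on gelatine in medium with LIF, and each was sorted on a cytometer by the signal of GFP-Myc or of EYFP. Which of these reporters belongs to a given library is not in the labels, and no further treatment is named that would set the populations apart. The replicates, numbered 1 to 3, are called biological. The populations were set apart by sorting, and the labels name no step by which the experimenter raised or lowered Myc in a library.

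Myc is a transcription factor that binds DNA together with its partner Max, most tightly at the E-box CACGTG. It drives growth, ribosome production and cell division, and ES cells need it or its relative Mycn to keep dividing. LIF, acting through Stat3, keeps ES cells in the naive state, whereas FGF signalling through ERK moves them towards the primed state of the later epiblast.

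The level of a gene is given as the authors' normalized read count, on a scale close to CPM (reads as parts of a library's total). The 6 High and Medium libraries held 11114936 to 16755566 recovered reads each. Fold changes are log2 values of High minus Medium after 1 CPM was added, which understates the change of genes with low levels. A gene was called when limma's test over all genes gave a Benjamini-Hochberg adjusted p under 0.05. In bulk libraries such as these, fewer cells of a type and less RNA per cell cannot be told apart.

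Myc RNA was 112, 101 and 106 in High replicates 1 to 3, and 70, 65.5 and 65.8 in Medium. The High and Medium libraries did not overlap, and High was 1.59-fold above Medium, with means of 106 ± 5.71 and 67.1 ± 2.54 (SD, n = 3). The Low libraries held 26.3, 27.6 and 24.2, so Medium was 2.58-fold above Low. Because Myc level named the populations, these values check the labels and are a description. Among its relatives, Mycn had log2 -0.13 (95% interval -0.29 to 0.03) and Mycl -0.30 (-0.48 to -0.11), neither called. Max, the partner of Myc, had 0.14 (-0.05 to 0.33) and was not called.

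Between High and Medium, few genes passed the test, and more of them fell than rose. Of 13499 genes, 55 were called (0.407%), of which 11 were higher in High (0.0815%) and 44 lower (0.326%). The 44 lower genes included placental genes (Rhox6, Rhox9, H19, Wnt7b), the FGF receptor Fgfr2, the iron exporter Slc40a1 and Otx2. The 11 higher genes included Myc itself and the transcription factors Gbx2, Etv4, Nkx6-3, Zfp423 and Olig2. All 55 had High and Medium libraries that did not overlap, but so did 1261 genes in the higher direction (9.34%) and 1454 in the lower direction (10.8%). At an unadjusted p under 0.05, limma gave 1468 genes (10.9%), and at an adjusted p under 0.05 edgeR called 63 (0.467%) and DESeq2 260 (1.93%). The split moved with the settings: 22 were higher and 35 lower with a pseudocount of 5 CPM, 5 and 37 with quantile normalization, and 95 and 165 by DESeq2. Changes were small: 37 genes differed by more than 1 on the log2 scale, 13 of them called, and the median size over all genes was 0.11.

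**Figure D1:**
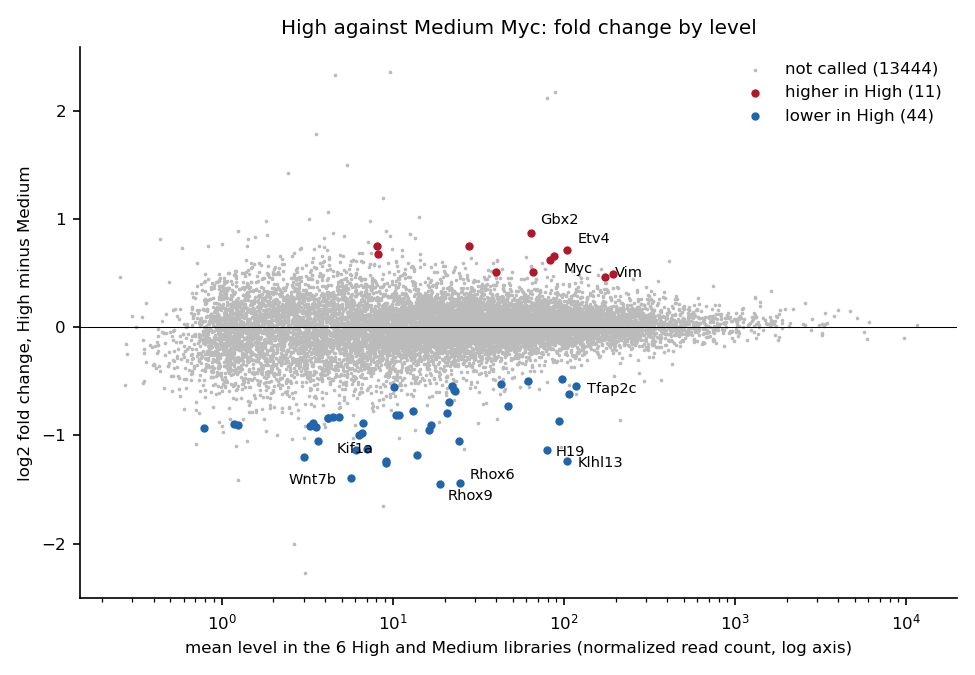
Fold change of all 13499 genes (vertical axis, log2 of High minus Medium) against mean level in the 6 High and Medium libraries (horizontal log axis, normalized read count). Red points are the 11 genes called higher and blue points the 44 called lower; the lower genes reach -1.45, while the higher genes end at 0.87 (Gbx2).

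How many genes passed depended on which libraries entered the fit. Directions could not turn in these fits, since High and Medium libraries overlapped for none of the called genes. Without Low replicate 1 the count was 206, and without Low replicate 2 it was 92, with all 55 genes still called in both fits. The call was lost by 35 of the 55 genes without Low replicate 3, by 42, 43 and 44 without Medium replicate 1, 2 or 3, and by 44, 40 and 39 without High replicate 1, 2 or 3. The 11 genes called in each of these 9 fits were all lower in High: H19, Rhox6, Rhox9, Sdc4, Wnt7b, Eps8l2, Slc40a1, Syt13, Fgfr2, Klhl13 and Gprc5c. Of the 11 higher genes, 0 were called in all 9 fits. With only the 6 High and Medium libraries, 170 genes were called (1.26%), 62 higher (0.459%) and 108 lower (0.800%), and these held all 55. Low libraries enter the main fit only through the estimate of the spread, and the median SD on the log2 scale was 0.194 in Low, 0.132 in Medium and 0.120 in High.

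Transcript length moved with the comparison. Among 13412 genes with a known length, those with transcripts of at most 2100 nt had a median log2 of 0.07 in High against Medium, and those of at least 4731 nt had -0.06. The gap between long and short transcripts differed among libraries of a population: it was 0.25, -0.06 and -0.07 in High replicates 1 to 3, and 0.30, -0.05 and 0.25 in Medium. Medium replicate 3 thus stood with replicate 1 of both populations, while High replicate 3 stood with the libraries numbered 2. With the length trend removed from each library, 309 genes were called (2.29%), 117 higher (0.867%) and 192 lower (1.42%). These held 54 of the 55 genes; Megf11 missed, at adjusted p = 0.0513 by limma.

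**Figure D2:**
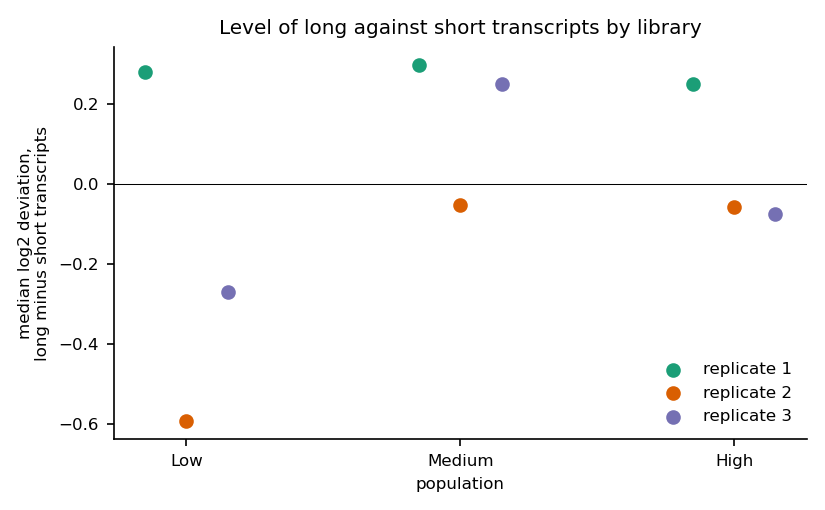
Median log2 deviation of long transcripts minus that of short transcripts (vertical axis) in each library of the 3 populations (horizontal axis), coloured by replicate number. High replicate 1 and Medium replicates 1 and 3 lie near 0.25 to 0.30, and the other High and Medium libraries lie just under 0.

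Promoters of called genes are shown where they held the E-box CACGTG, the site that Myc binds with Max. Whether Myc binds these promoters was not tested. Promoter sequences came from RefSeq (build GRCm38.p6) and covered the 250 bases before each start, printed on the gene's strand. They were found for 9765 of 13489 gene names, for 7 of the 11 higher and for 28 of the 44 lower genes. The hexamer was searched on both strands, where it reads the same. It lies in Gbx2 at chr1:89931177-89931426, in Kif1a at an internal start at chr1:93082481-93082730, and in Zfp365 at chr10:67912663-67912912, all on the minus strand, with the hexamer in capitals.
Gbx2: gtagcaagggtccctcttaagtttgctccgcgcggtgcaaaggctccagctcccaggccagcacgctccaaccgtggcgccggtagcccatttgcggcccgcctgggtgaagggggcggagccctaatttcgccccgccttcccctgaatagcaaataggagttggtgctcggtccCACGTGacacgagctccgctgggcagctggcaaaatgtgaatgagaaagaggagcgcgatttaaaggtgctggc
Kif1a: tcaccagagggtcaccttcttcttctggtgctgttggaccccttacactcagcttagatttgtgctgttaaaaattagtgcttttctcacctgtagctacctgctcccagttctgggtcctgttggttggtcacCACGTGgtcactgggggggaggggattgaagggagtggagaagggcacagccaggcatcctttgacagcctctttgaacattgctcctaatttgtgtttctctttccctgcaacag
Zfp365: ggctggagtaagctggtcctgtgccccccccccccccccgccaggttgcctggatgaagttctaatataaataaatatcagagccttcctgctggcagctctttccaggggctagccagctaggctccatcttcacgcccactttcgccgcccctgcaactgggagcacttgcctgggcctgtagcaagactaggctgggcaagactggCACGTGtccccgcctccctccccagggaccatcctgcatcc

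The hexamer begins 74 bases before the start in Gbx2, 41 in Zfp365 and 116 in Kif1a. It was in a promoter of 1 of 7 higher genes (14.3%) and of 2 of 28 lower genes (7.14%), against 975 of all 9765 genes (9.99%). A gene was counted if any of its promoters held the site, and some genes had several. The looser E-box CANNTG, which includes CACGTG, was found for 4 of 7 (57.1%), 19 of 28 (67.9%) and 61.6% of all. These shares are descriptions of the sequence, and they lie near those of all genes with a promoter.

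The 11 higher genes are given with the transcription factors first. Gbx2, a homeobox factor that LIF and Stat3 induce in ES cells, held 92.9, 79.4 and 78.3 in High and 49.7, 44.4 and 41.4 in Medium. Each High library was above each Medium one, and Low was at 19.4 ± 1.76 (SD, n = 3). Gbx2 rose 1.85-fold from Medium to High (log2 0.87, SE 0.108, limma adjusted p = 0.0107). Etv4, an ETS factor induced by FGF through ERK, held 117, 139 and 135 in High against 71.2, 85.3 and 79.7 in Medium. It rose 1.65-fold (log2 0.72, SE 0.116, limma adjusted p = 0.0367), again with no overlap.

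Nkx6-3, a homeobox gene, stood at 10.3 ± 0.436 in High and 6.07 ± 0.562 in Medium (SD, n = 3; log2 0.68). Zfp423, a zinc finger factor of neural progenitors, stood at 99.9 ± 6.22 and 64.8 ± 3.19 (log2 0.62). Olig2, a factor of oligodendrocyte and motor neuron progenitors, stood at 47 ± 0.543 and 32.7 ± 1.11 (log2 0.51). These 3 genes passed limma's test at adjusted p of 0.0489, 0.0234 and 0.0322. From Low to Medium the same genes had log2 values of 1.36, 1.43 and 0.71.

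The other higher genes had roles outside transcription. Ppm1j, a protein phosphatase, held 37.1, 34.2 and 34.3 in High and 19.8, 22.1 and 19.8 in Medium. It rose 1.71-fold (log2 0.75, SE 0.0925, limma adjusted p = 0.0107). Megf11, a cell surface protein with EGF-like repeats, was 1.8-fold higher. Itpk1, a kinase of inositol phosphates, was 1.41-fold higher, and H2-M5, a class I MHC gene outside the classical set, 1.43-fold. Vim, which encodes the intermediate filament vimentin, was at 201 ± 14.7 in High and 145 ± 3.72 in Medium (SD, n = 3; 1.38-fold, limma adjusted p = 0.0449).

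The 3 called genes with the lowest log2 values, Rhox9, Rhox6 and Wnt7b, are known from the placenta. Rhox9, a homeobox gene of the reproductive cluster on chromosome X (X:37899097-37901770 on GRCm38), held 10.1, 9.25 and 9.33 in High. Medium held 29, 30.3 and 24.4, and Low 102, 139 and 119, so the 3 populations did not overlap. Rhox9 was 2.92-fold lower in High than in Medium (log2 -1.45, SE 0.127, limma adjusted p = 0.00162). Its neighbour Rhox6 (X:37826910-37829857) held 11.2, 13.1 and 13.8 in High and 37.6, 41.3 and 30.1 in Medium, 2.86-fold lower in High (log2 -1.44, limma adjusted p = 0.00347). Rhox6 and Rhox9 are related copies, and how the counting shared reads between them is not given in the sources used here. Of the 6 genes of the cluster that were measured, the other 4 were not called; Rhox5, for example, was at 57.5 in High and 63.6 in Medium and was not called.

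H19, an imprinted long noncoding RNA abundant in the placenta (7:142575529-142578143), held 50.5, 45.3 and 52 in High and 118, 114 and 96.8 in Medium. Every High library was below every Medium one, by 2.23-fold in the means (log2 -1.13, SE 0.0974, limma adjusted p = 0.00162). Wnt7b, a Wnt ligand needed for the chorion to fuse with the allantois (15:85535437-85582473), held 3.04, 2.49 and 2.49 in High and 9.03, 8.72 and 8.3 in Medium. It was 3.25-fold lower in High (log2 -1.40, SE 0.119, limma adjusted p = 0.00162). Tfap2c, a factor of trophoblast and germ cells, was at 95.3 ± 2.45 in High and 140 ± 4.38 in Medium (SD, n = 3; log2 -0.55). Krt7, a keratin of trophoblast and simple epithelia, was at 2.92 ± 0.257 and 6 ± 0.354 (log2 -0.83).

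Of 28 trophoblast markers listed, 18 were measured, and 6 were lower in High and 0 higher, namely Rhox9, Rhox6, Wnt7b, H19, Krt7 and Tfap2c. The median over the 18 was -0.43, beside 0.005 over all genes tested, and 9 had High libraries below all Medium ones with 0 above. Of all genes, 0.326% were called lower and 0.0815% higher, and 10.8% lay below and 9.34% above without overlap. This list was chosen with earlier results of these data known, so its direction is no independent evidence. The summed level of the 18 was 455 to 513 in High and 684 to 839 in Medium. Cdx2 and Elf5, which define trophoblast, are not named in the table, and Eomes stood at 4.98 in High and 6.26 in Medium (log2 -0.29, not called). Whether other cells took part in these values was not tested.

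**Figure D3:**
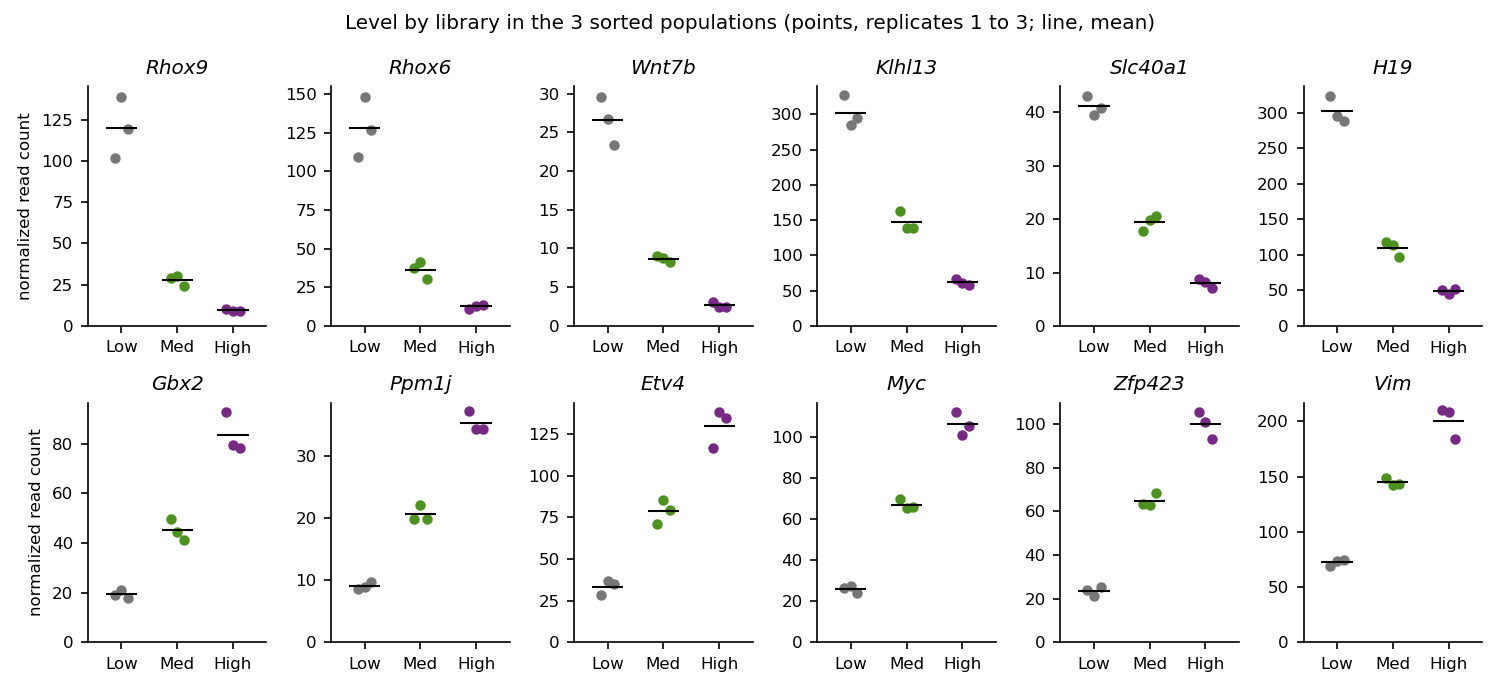
Normalized read count (vertical axes, from 0) of 12 called genes in each library of the Low, Medium and High populations; points are replicates 1 to 3 and lines are means. The lower genes, Rhox9 to H19, fall and the higher genes, Gbx2 to Vim, climb across the 3 populations, with no overlap between High and Medium.

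Other lower genes encode receptors and cell surface proteins, a grouping made after the values were seen. Fgfr2, a receptor for FGF, held 14.8, 15.3 and 16.5 in High and 32.9, 32.8 and 34 in Medium, with no overlap. It was 2.14-fold lower in High (log2 -1.05, SE 0.102, limma adjusted p = 0.00315). Sdc4, a heparan sulfate proteoglycan, was at 65.7 ± 5.72 in High and 121 ± 9.32 in Medium (SD, n = 3; log2 -0.87), and Gpc1, another such proteoglycan, had log2 -0.58. Pth1r, the receptor for parathyroid hormone, was 3.24-fold lower. Gprc5c, an orphan receptor, Cdcp1, a transmembrane protein with CUB domains, Prom1, the stem cell surface protein CD133, and Cd276, an immune checkpoint protein, had log2 values of -0.95, -0.98, -0.83 and -0.49.

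Transporters and enzymes were also among them. Slc40a1, ferroportin, the exporter of iron from cells, held 8.72, 8.18 and 7.16 in High and 17.8, 19.9 and 20.6 in Medium. It was 2.42-fold lower (log2 -1.18, SE 0.102, limma adjusted p = 0.00162). Slc5a5, the sodium and iodide symporter, had log2 -0.84. The median over 203 solute carriers was -0.01. Car12, a carbonic anhydrase, and Pla2g4a, cytosolic phospholipase A2, had -0.88 and -0.92. Moxd1, a monooxygenase, rested on 7 reads in each High library and on 26, 26 and 30 in Medium.

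Several lower genes act on the cytoskeleton or on protein turnover. Klhl13, an adaptor of Cul3 ubiquitin ligases (X:23219271-23365082), held 66.9, 60.3 and 58.1 in High and 163, 139 and 139 in Medium. It was 2.38-fold lower in High (log2 -1.24, SE 0.0953, limma adjusted p = 0.00162), with no overlap. Eps8l2, a regulator of actin, was at 4.94 ± 0.873 in High and 13.1 ± 0.854 in Medium (SD, n = 3; log2 -1.26). The plastins Lcp1 and Pls3, which bundle actin, and Aif1l, which binds it, had -0.99, -0.59 and -0.80. Kif1a, a kinesin that carries synaptic vesicle precursors, held 5.08, 4.09 and 5.79 in High and 10.3, 14.2 and 15.3 in Medium (log2 -1.24, SE 0.201, limma adjusted p = 0.0367). Prickle1, of planar cell polarity, and Syt13, a synaptotagmin, had -1.14 and -1.05.

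The 44 lower genes also held regulators. Otx2, a homeobox factor of the primed epiblast, was at 7.92, 7.29 and 7.4 in High and 13.9, 14.7 and 13.5 in Medium, 1.86-fold lower (log2 -0.81, SE 0.104, limma adjusted p = 0.0129). Ddit4, an inhibitor of mTORC1 induced by stress, had log2 -0.90, and Ccng1, a cyclin induced by p53, had -0.48. Zfp750, a factor of epidermal differentiation, Zfp365, a zinc finger gene, Hmgn5, which binds nucleosomes, and Kctd15, a BTB domain gene, had -0.88, -0.77, -0.62 and -0.53. Igfbp3, which binds insulin-like growth factors, had -0.81. Mbp, which encodes myelin basic protein, had -0.84. Gbp2, a GTPase induced by interferon, rested on 2, 4 and 2 reads in High and on 22, 19 and 16 in Medium. Further lower genes were Fndc3c1 (-1.12), AU015836 (-0.73), Sh3bgrl (-0.70), C530008M17Rik (-0.92) and Gm13597 (-0.89).

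Pluripotency genes were counted in lists. Of 28 naive pluripotency genes, 1 was called higher (Gbx2, against 0.0815% of all genes) and 0 lower, with a median of 0.14, and the High libraries lay above Medium for 12 and below for 3. Of all genes, 9.34% lay above and 10.8% below without overlap. DESeq2 called 5 of the 28, and with the length trend removed limma called 4 higher and 1 lower. Of all genes, DESeq2 called 1.93%, and the length-corrected fit called 0.867% higher and 1.42% lower. From Low to Medium, by limma, 16 of the same 28 were called higher and 1 lower, beside 6.14% and 5.87% of all genes. Esrrb, Klf4, Tfcp2l1 and Tbx3, core factors of the naive state, had log2 values of 0.03, -0.02, 0.05 and 0.02 from Medium to High. Their 95% intervals were -0.19 to 0.25, -0.25 to 0.20, -0.37 to 0.46 and -0.27 to 0.31. From Low to Medium the same genes had 0.51, 0.42, 0.89 and 0.64, all called by limma.

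Zfp57, which protects imprints, was at 495 in High and 326 in Medium and missed the threshold (log2 0.62, limma adjusted p = 0.0552). Dppa3, the germline and naive gene Stella, was at 28.7 ± 3.3 in High and 52.5 ± 5.16 in Medium (SD, n = 3). Its libraries did not overlap, and limma's adjusted p was 0.0552 (log2 -0.85). Dppa3 passed with only the High and Medium libraries (0.0165), with the length trend removed (0.000113) and by DESeq2 (0.000289). Of 19 general pluripotency genes, 0 were called by limma (4 at an unadjusted p under 0.05) and by edgeR, and 2 by DESeq2, with a median of 0.11. Over all genes, those shares were 10.9% unadjusted and 1.93% by DESeq2. Of the 19, 15 had a log2 above 0. High lay above Medium without overlap for 8 and below for 0, beside 9.34% and 10.8% of all genes. Pou5f1, Sox2 and Nanog had log2 0.23 (95% interval -0.09 to 0.55), -0.02 (-0.18 to 0.14) and -0.08 (-0.30 to 0.15).

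Of 20 primed epiblast markers, 1 was lower (Otx2) and 0 higher, and 9 had High libraries below Medium and 2 above. Of all genes, 0.326% were called lower and 0.0815% higher, and 10.8% lay below and 9.34% above without overlap. Without the Low libraries 4 of the 20 were called lower, and 4 with the length trend removed. In those fits 0.800% and 1.42% of all genes were called lower. Fgf5, a marker of the primed state, stood at 2.42 ± 0.244 in High and 4.13 ± 0.27 in Medium (log2 -0.58) and was not called. Of 20 genes of FGF signalling, Etv4 was higher and Fgfr2 lower, beside the same 0.0815% and 0.326% of all genes. Their median was 0.10, with 14 above 0. High lay above Medium without overlap for 7 of the 20 and below for 3. Fgf4, the FGF ligand of ES cells, was at 291 ± 19.2 in High and 246 ± 12.3 in Medium (log2 0.24, 95% interval 0.07 to 0.41), not called. Its feedback inhibitor Spry4 was at 114 and 91.7, and Dusp6, an ERK phosphatase, at 85.8 and 77.3; neither was called.

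Among 21 genes of the Nodal pathway, 0 were called by limma (5 at an unadjusted p under 0.05) and by edgeR, and 4 by DESeq2, beside 10.9% and 1.93% of all genes for the unadjusted and the DESeq2 count. Lefty1, an inhibitor of Nodal, held 35.3, 69.2 and 77.5 in High and 83.2, 157 and 150 in Medium. Its groups did not overlap, and replicate 1 was the lowest library in both (log2 -1.11, limma adjusted p = 0.226). By DESeq2 Lefty1 passed, at 0.0318, and in a limma fit with the replicate number as a block, at 0.00128. Lefty2 had log2 -0.71 (limma adjusted p = 0.0558, and 0.0387 with only the High and Medium libraries) and Nodal itself 0.01 (95% interval -0.22 to 0.24). Of 15 Bmp and Id genes, 0 were called by limma (6 at an unadjusted p under 0.05) and by edgeR, and 1 by DESeq2. The shares over all genes are again 10.9% unadjusted and 1.93% by DESeq2. The median over the 15 was -0.25. Of 15 Wnt genes measured out of 27 listed, Wnt7b was lower (against 0.326% of all genes) and 0 were higher (0.0815%). Their median was 0.06, with 9 above 0. Notum, which inactivates Wnt proteins, stood at 73.3 in High and 46.4 in Medium (log2 0.65, limma adjusted p = 0.0552).

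Of 31 genes in the list of p53 and its targets, 2 were lower (Ddit4, Ccng1) and 0 higher, with a median of -0.31. For 15 of them High lay below Medium and for 4 above. Of all genes, 0.326% were called lower, and 10.8% lay below and 9.34% above without overlap. The count of lower members was 6 without the Low libraries and 10 with the length trend removed. In those fits 0.800% and 1.42% of all genes were called lower. Trp53, which encodes p53, had log2 0.05 (95% interval -0.14 to 0.25). Mdm2, its ubiquitin ligase, was at 80.7 ± 1.88 in High and 100.4 ± 5.22 in Medium (log2 -0.31, limma adjusted p = 0.111), and Cdkn1a, the cell cycle inhibitor p21, had -0.30 (-0.60 to -0.00).

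Of 31 keratin and epithelial junction genes, 2 were lower (Eps8l2, Krt7) and 0 higher, with a median of -0.24. High lay below Medium for 17 and above for 1. Of all genes, 0.326% were called lower, and 10.8% lay below and 9.34% above without overlap. The count of lower members was 6 without the Low libraries and 9 with the length trend removed. In those fits 0.800% and 1.42% of all genes were called lower. Dsp, a protein of desmosomes, held 4.29, 2.76 and 3.46 in High and 8.73, 7.73 and 7.92 in Medium, and was not called (log2 -1.03, limma adjusted p = 0.109). Cdh1, E-cadherin, had log2 -0.12 and was not called.

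For growth genes that Myc is known for, 0 calls in lists of this size lie near the share of all genes (0.407%) and are no result about them. Of 90 genes of ribosome biogenesis, 0 were called by limma, edgeR or DESeq2, 2 had an unadjusted p under 0.05 by limma (10.9% of all genes did), and the median was 0.07, with 75 above 0. Ncl, the nucleolar protein nucleolin, had log2 -0.03 (95% interval -0.27 to 0.21), Odc1, of polyamine synthesis, -0.03 (-0.23 to 0.18), and Nop56, of the box C/D particle, 0.21 (-0.06 to 0.48). Of 83 cytoplasmic ribosomal proteins, 0 were called by limma, edgeR or DESeq2 and 1 had an unadjusted p under 0.05. Their median was 0.09, and 0.01 with the length trend removed. Of 36 DNA replication genes and 35 genes of G2 and mitosis, 0 were called by these tools, 1 and 7 had an unadjusted p under 0.05, and the medians were -0.01 and 0.03. The 7 mitosis genes were all higher in High. High lay above Medium without overlap for 15 ribosome biogenesis, 2 ribosomal protein, 2 replication and 8 mitosis genes. It lay below for 1, 0, 6 and 1 in these lists, beside 9.34% of all genes above and 10.8% below. With the length trend removed, 1 ribosomal protein, 1 replication and 1 mitosis gene were called. That fit called 2.29% of all genes. Of 26 glycolysis genes, 0 were called by limma (4 at an unadjusted p under 0.05) and by edgeR, and 2 by DESeq2. Of all genes, 10.9% had such a p, and DESeq2 called 1.93%.

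**Figure D4:**
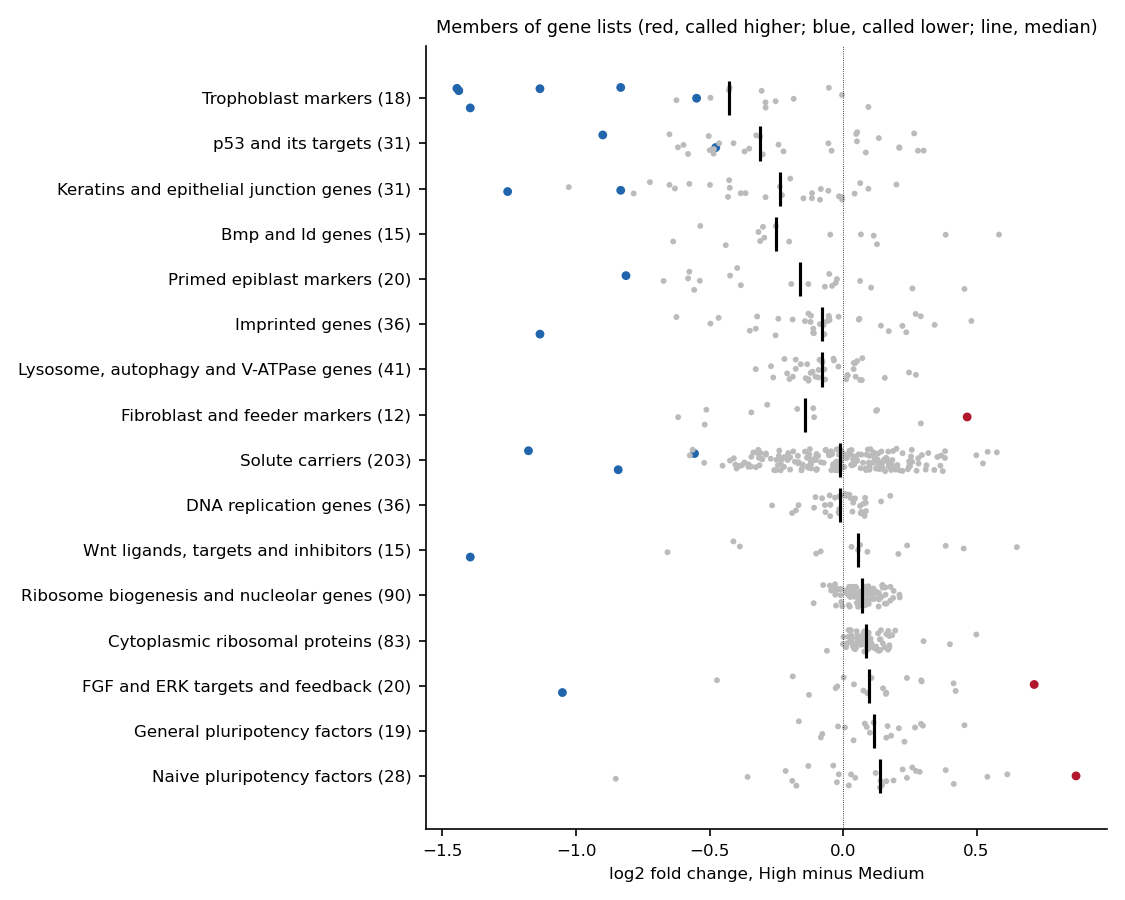
Log2 fold change of High minus Medium (horizontal axis) for the measured members of 16 gene lists (rows, with the number measured). Red and blue points are members called higher and lower, grey points were not called, and black lines are medians, from -0.43 for trophoblast markers to 0.14 for naive pluripotency genes.

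Markers of other cells were compared as well. Of 12 fibroblast and feeder markers, Vim was higher (against 0.0815% of all genes) and 0 were lower (0.326%), and the median was -0.14. Their summed level ran from 1284 to 1595 in High and from 1162 to 1372 in Medium, most of it Fn1. Col1a1 and Col1a2, the collagens that define fibroblasts, were at 10.2 and 10.8 in High and 15.2 and 16.1 in Medium, neither called. Of 11 primitive endoderm markers, 0 were called by limma (4 at an unadjusted p under 0.05) and by edgeR, and 1 by DESeq2. Of all genes, 10.9% had such a p, and DESeq2 called 1.93%. The endoderm markers summed to 1103 to 1268 in High and 964 to 1072 in Medium. Gata6, Gata4 and Sox17 are not named in the table. Of 10 neuroectoderm markers, Gbx2 was higher and 0 were lower, beside 0.0815% and 0.326% of all genes. Their median was -0.11, and 7 of the 10 lay below 0. Sox1, the earliest neural gene, was at 23.9 ± 0.61 in High and 16.5 ± 0.698 in Medium (log2 0.50, limma adjusted p = 0.0558). The part of such cells in the results was not tested.

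The genes just outside the threshold were Fhl1, a LIM domain gene, and Cln6, of the endoplasmic reticulum (both limma adjusted p = 0.0506). They were followed by Dap, Lmna and Robo4 (each 0.0522). Lmna, which encodes lamin A, held 44.9, 44.8 and 45.1 in High and 30.5, 31.7 and 30.8 in Medium. Robo4, a receptor of the roundabout family, held 18.5, 18.5 and 20.3 in High and 6.61, 9.08 and 11.7 in Medium, a log2 of 1.02. Some genes moved as far as the called ones and did not pass, such as Nrk, a kinase of the placenta (log2 -1.12, limma adjusted p = 0.063), and Ankrd34a (0.86, 0.0552). With only the High and Medium libraries, these genes and the 5 just outside the threshold passed.

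The step below, from Low to Medium, was fitted on the same libraries, so the Medium libraries are shared and the values are only set side by side. By limma it had 1621 called genes, 829 higher in Medium (6.14%) and 792 lower (5.87%), and the median size of change was 0.21 against 0.11 for the upper step. That count of 1621 fell to 527 when Low replicate 3 was left out and to 573 for Medium replicate 3, and leaving out Low replicate 1 gave 5123. The 11 genes higher in High had a median of 0.66 in the upper step, and in the lower step they had 0.63 (Megf11) to 1.43 (Zfp423). The 44 lower genes had medians of -0.89 and -0.79. Ntn1, the guidance ligand netrin-1, had 0.64 in the upper step (limma adjusted p = 0.0552) and 2.23 in the lower. Kif1a had -1.24 and -0.37, C530008M17Rik -0.92 and -0.19, and Gm13597 -0.89 and 0.22, and these 3 were the called genes that did not pass in the lower step.

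Whether the steps differ was tested gene by gene. By limma 0 of 13499 genes passed, with a smallest adjusted p of 0.202 (Ntn1) and 766 genes at an unadjusted p under 0.05. By edgeR 0 passed and by DESeq2 21. Without Low replicate 1, limma called 68. Sfrp1, a Wnt antagonist, had 0.06 in the upper step and 1.09 in the lower (unadjusted p = 3.41e-05, limma adjusted p = 0.23). No gene is therefore reported as changing more in one step than in the other.

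**Figure D5:**
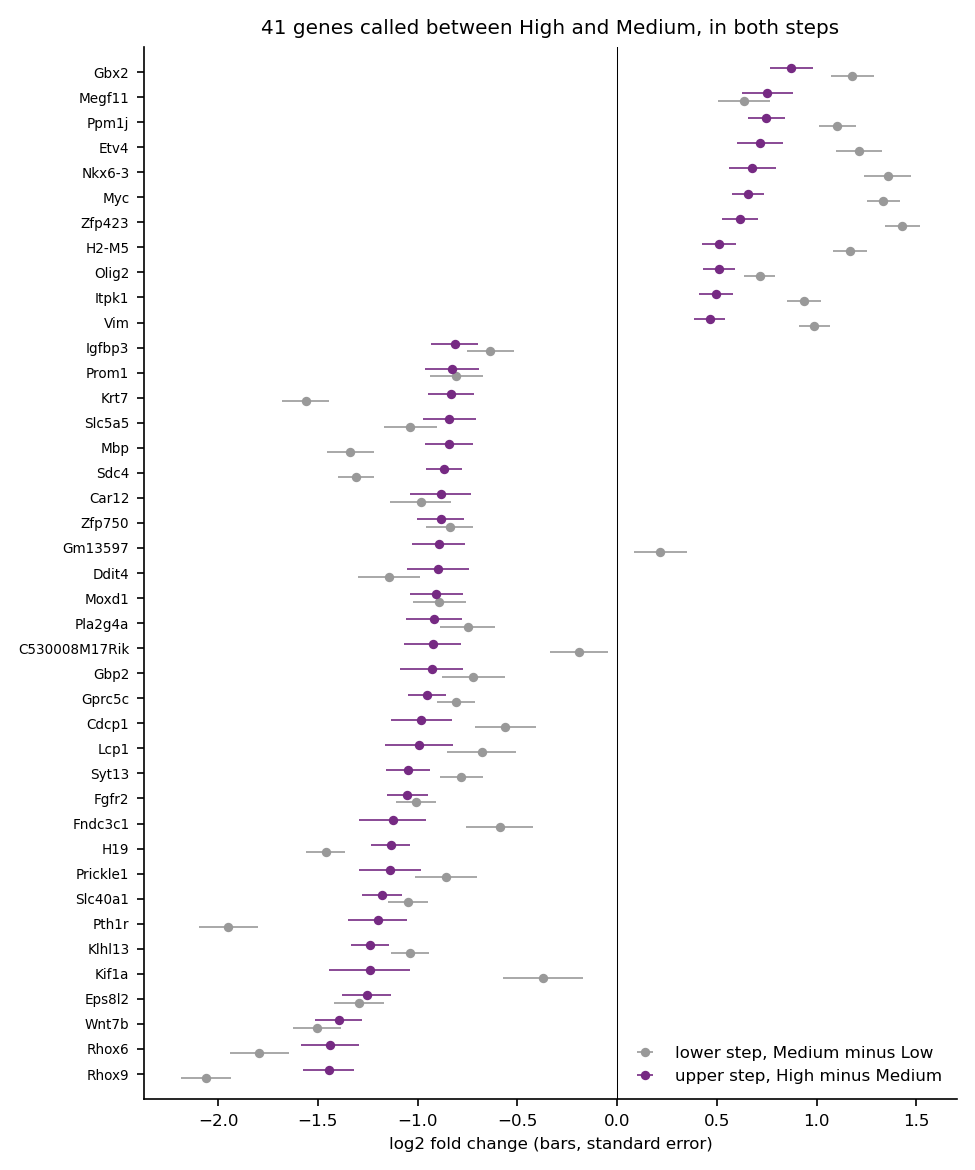
Log2 fold changes (horizontal axis, bars are standard errors) of the 11 genes called higher in High and the 30 called lower with the lowest fold changes (rows), in the upper step (purple) and in the lower step from Low to Medium (grey). The steps share the Medium libraries. For Gm13597 the grey point lies at 0.22, across 0 from the purple one at -0.89; for the other 40 genes shown both points lie on the same side.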

How the data were processed

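Libraries were read single-end at 61 nt, per the labels' protocols. RSEM 1.17, limma, cutadapt and Picard appear in the submitters' processing notes without their roles. The choice of genome build, annotation, filters and strand is not given in the sources used here. Deposited values are a signal per gene and library, which the authors made as gene counts divided by a factor per library. Values were whole multiples of 1 read in 100% of cases, within 0.001 read. 85 genes lacked a name.

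Tests used limma 3.58.1 (R 4.3.3), its variance trend switched on, and log2(signal + 1 CPM of the column total). All 9 libraries entered, with population as the only term. The filter of 1 CPM in at least 3 libraries kept all 13499 genes. The fit had 6 residual degrees of freedom, and its script was tested on simulated data. On the recovered reads, edgeR 4.0.16 called 63 genes (quasi-likelihood test) and DESeq2 1.42.0 called 260. Intervals of 95% come from limma's standard errors. Gene positions and lengths came from GENCODE M21 on GRCm38, matched by identifier for 99.4% of genes. The length correction subtracted a smooth trend of log2 deviation on transcript length from each library (lowess span 0.3).

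The comparison, its gene lists (54) and tests were chosen with earlier results of these data known. Named genes were called genes above the 25th percentile of level with no overlap between populations (12 highest, 15 lowest), up to 3 called members a list, 42 fixed genes, and the nearest and largest uncalled ones. Other genes, further called ones among them, were named after their values were seen, and some called genes are not reported here. Replicates differed beyond counting noise. The labels call them biological without naming separate cultures, so p-values measure the spread between these samples. Alternatives covered pseudocount, filter, scaling, weights, libraries, block, length and tool.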

Additional observations from a re-analysis of the deposited data

How the results depend on the processing

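None of the 55 genes called between High and Medium turned direction in any alternative run. Since their High and Medium libraries did not overlap, leaving out or weighting libraries could not turn it. The count of 55 was 84 with no variance trend, 1080 with array weights (whose fit stopped before converging), 170 with only the High and Medium libraries, 309 with the transcript length correction and 260 by DESeq2. It ran from 11 to 206 when each library was left out in turn. The count of 1621 between Medium and Low was 8784 with array weights and 2742 with the length correction, and ran from 527 to 5123 with each library left out. The count of 0 for the difference between steps was 3436 with array weights, 2 with the length correction and 21 by DESeq2, and ran from 0 to 68. Pseudocounts, filters, scalings, robust moderation and edgeR kept the 55 within 1.5 times, from 42 (quantile normalization) to 73 (filter of 5 CPM, which leaves 10705 genes, 52 of the 55 among them). For these shifts the cause was not tested.

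The labels share replicate numbers. Deviations of same-numbered High and Medium libraries correlated at 0.35, 0.17 and -0.04, and High replicate 3 correlated best with Medium replicate 2 (0.35), so for this step the rule of every pair over 0.1 was not met. Medium and Low had 0.25, 0.43 and -0.11, which did not meet it, while High and Low had 0.53, 0.26 and 0.18, which did. The labels do not say that a number marks a shared culture or day, and the fit without the block is the one reported. With a replicate block all 55 genes were still called, and the counts were 203, 3656 and 1 for the upper step, the lower step and their difference. With the replicate block and the length correction together they were 505, 3831 and 2.

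Alternatives chosen after seeing the data were array weights fitted gene by gene (801, 7044 and 1153), the High and Medium libraries with the length correction (403), and the same libraries with a replicate block (759). Depth limits low genes such as Gbp2, with 2 to 4 reads in High. A gene that missed the threshold is not shown to be equal between populations.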

Other observations

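Chromosome X held 9 of the 44 genes lower in High and 0 of the 11 higher. The pattern was noticed after the values were seen, and it was not tested. They included Rhox6, Rhox9, Klhl13, Fndc3c1, AU015836, Sh3bgrl, Hmgn5 and Pls3, and the 9 are 1.75% of the 514 X-linked genes measured, while 0.271% of the 12898 genes on other chromosomes were called lower. Without the Low libraries, 14 X-linked genes were called lower and 0 higher, beside 94 and 62 of the genes on other chromosomes. With the length trend removed, 21 X-linked genes were lower and 3 higher, beside 171 and 114. Most X-linked genes moved little: their median log2 was -0.03, beside 0.01 for the others. The share of all signal from chromosome X was 2.84% to 2.85% in High, 2.91% to 2.99% in Medium and 3.04% to 3.07% in Low, with no overlap between populations. A lower share in High was not particular to X. Chromosome 12 held 3.101% to 3.163% in High and 3.173% to 3.314% in Medium, while its Low libraries, at 3.025% to 3.266%, overlapped both. The median log2 of chromosome 12 was -0.04, and 0 of its genes were called lower. Sh3bgrl (X:109095365-109197873) and Hmgn5 (X:109004534-109013404) are neighbours on GRCm38, as Rhox6 and Rhox9 are members of a cluster.

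Notum and Notumos, an RNA named as its opposite strand, both stood above Medium in High. Notumos held 11.4, 11.6 and 13.1 in High and 4.55, 6.2 and 7.66 in Medium (log2 0.89, limma adjusted p = 0.0554). The use of strand in counting is not given in the sources used here, so their reads cannot be told apart.

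The Hippo pathway controls organ size and the first choice between trophoblast and embryo. Among its 21 measured genes, 0 were called by limma (3 at an unadjusted p under 0.05) and by edgeR, and 1 by DESeq2. Of all genes, 10.9% had such a p, and DESeq2 called 1.93%. Fold changes of the Hippo genes were nonetheless nearly all small and below 0, in 20 of 21. Their median was -0.07, and 6589 of 13499 genes lay below 0 in all. Amot, which holds Yap1 in the cytoplasm, had log2 -0.62, and Yap1 itself -0.05. Nuclear genes of oxidative phosphorylation had 83 of 88 above 0 with 0 called by limma, edgeR or DESeq2, 0 at an unadjusted p under 0.05 and a median of 0.10, which was 0.02 with the length trend removed.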
